A study of Rattus norvegicus with 8 samples.

Results

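A set of 10 chemokine genes of the rat liver were followed here: the CXC ligands Cxcl1, Cxcl2, Cxcl9, Cxcl10, Cxcl12 and Cxcl16, the CC ligands Ccl2, Ccl5 and Ccl6, and the CX3C ligand Cx3cl1. They were taken as every non-control probe whose gene name on the array equalled one of the 10 symbols, which gave 12 of the 30367 non-control probes, and 10 of the 18252 genes that could be named, with 2 probes each for Cxcl12 and Ccl6. The arrays were 1-colour Agilent rat expression arrays, 1 for the liver of each of 8 male Fisher 344 rats, an inbred strain, aged 18 weeks. Of these, 4 rats had been given furan, a liver carcinogen of rodents, by gavage for 90 days, with a daily dose of 8 mg per kg given 5 times weekly, and their livers were taken 24 hours after the last dose. The other 4 rats were controls of the same strain, sex and age. The vehicle of the controls is not given in the sources used here.

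Chemokines are small secreted or membrane-tethered proteins that guide leukocytes through G protein-coupled receptors. In the liver they come from hepatocytes, Kupffer cells, stellate cells, sinusoidal endothelium and bile duct cells. Cxcl1 and Cxcl2 attract neutrophils through Cxcr2, Cxcl9 and Cxcl10 are interferon-inducible ligands of Cxcr3 on T cells and NK cells, Cxcl12 signals through Cxcr4 and is scavenged by Ackr3, and Cxcl16 and Cx3cl1 are made as transmembrane proteins that bind Cxcr6 and Cx3cr1.

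Promoters of 3 genes are shown because the neighbouring genes Cxcl1 and Cxcl2, and the genes Cxcl9 and Cxcl10, gave different changes on the arrays, and because NF-kappa-B and interferon response elements are textbook features of these genes. Each is the 250 bases before the annotated start, 5′ to 3′ on the gene's strand, from RefSeq on the GRCr8 build. Capitals mark matches on either strand. In Cxcl1 and Cxcl2 they are matches to the kappa-B consensus. In Cxcl10 they are, in order, a match to the interferon regulatory factor element GAAANNGAA, a kappa-B stretch, a match to TATAAA and a further kappa-B stretch.
Cxcl1, chr14:17479322-17479571, minus strand: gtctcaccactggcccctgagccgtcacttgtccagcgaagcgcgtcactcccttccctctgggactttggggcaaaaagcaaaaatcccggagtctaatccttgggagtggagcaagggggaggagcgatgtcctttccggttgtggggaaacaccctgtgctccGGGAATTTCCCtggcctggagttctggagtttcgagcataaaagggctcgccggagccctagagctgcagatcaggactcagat
Cxcl2, chr14:17467256-17467505, minus strand: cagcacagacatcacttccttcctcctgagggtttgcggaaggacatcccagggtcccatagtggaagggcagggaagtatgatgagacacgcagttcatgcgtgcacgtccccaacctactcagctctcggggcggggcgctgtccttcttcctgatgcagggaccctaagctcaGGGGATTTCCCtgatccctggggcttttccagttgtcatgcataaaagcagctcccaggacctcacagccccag
Cxcl10, chr14:15988816-15989065, plus strand: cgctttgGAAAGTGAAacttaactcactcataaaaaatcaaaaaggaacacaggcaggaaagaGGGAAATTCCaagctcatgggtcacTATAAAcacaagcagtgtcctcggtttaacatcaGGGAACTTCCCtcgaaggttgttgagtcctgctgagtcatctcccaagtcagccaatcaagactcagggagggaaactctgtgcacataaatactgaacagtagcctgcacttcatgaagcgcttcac

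A promoter was found for 8 of the 10 genes. The kappa-B consensus occurred in 6.33% of 33469 promoters searched. Cxcl1 and Cxcl2 each held 2 overlapping matches in 1 stretch, and Cxcl10 held 3 matches, 2 of them overlapping. GAAANNGAA occurred in 8.12% of the promoters and, among the 8, in Cxcl10. TATAAA occurred in 12.9% and, among the 8, in Cxcl10, Ccl6 and Cx3cl1. Cxcl9, Cxcl12 and Cxcl16 held none of the 3 motifs in this window. The motifs were chosen with matches in these promoters already seen.

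Levels are log2 processed signals with the 75th percentile of each array set at 0. That percentile was 1256 to 1596 intensity units on the furan arrays and 827 to 1057 on the control arrays, and 73.2% to 78.5% and 70.9% to 74.8% of the spots were well above background. Control 1 had the lowest percentile (827) and the lowest share of spots above background (70.9%) of the 8 arrays. Whether this bears on its low levels for some genes was not tested. All 12 chemokine probes counted as well above background on all 8 arrays, although for Cxcl2 on furan 4 this held for 1 of its 2 spots. Changes are furan minus control with the standard error of limma's moderated test, and p-values are adjusted by Benjamini-Hochberg over the 20268 probes tested. The number of arrays limits the precision. Slide 1 carried furan 1, furan 2, control 1 and control 2 and slide 2 the remaining arrays, so a change within each slide can be given.

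Of the 12 chemokine probes, 3 were lower after furan (Cxcl1 and both Cxcl12 probes), 1 was higher (Cxcl10) and 8 were not called at an adjusted p below 0.05. Among all probes tested, 33.8% were called, 16.9% lower and 16.9% higher, so the share of chemokine probes called was near that of the array. With the brightest probe of each gene the share was 34.0%. The calls numbered 3429 higher and 3423 lower in the main setting, and 30.2% were higher with a normexp background correction. The groups did not overlap for 4 of the 12 chemokine probes, against 36.4% of all probes tested. The median change of all probes tested was -0.03.

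**Figure D1:**
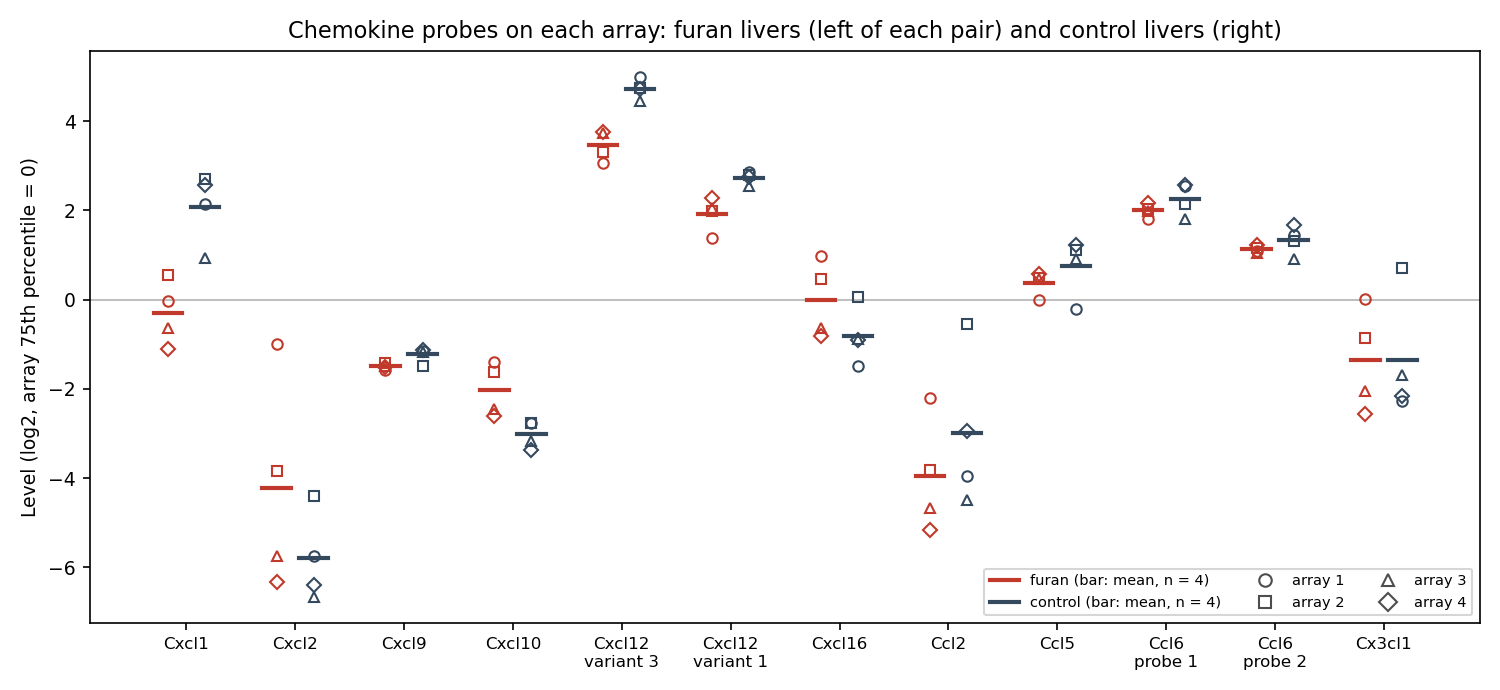
Level of each of the 12 chemokine probes on every array, as log2 processed signal with the array's 75th percentile at 0; each point is 1 liver, furan (red) left of control (dark blue), and horizontal bars are group means of 4 livers. Furan and control points are apart for Cxcl1, Cxcl10 and both Cxcl12 probes and overlap for the other 8 probes.

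The neutrophil chemoattractant Cxcl1 was 5.23-fold lower in furan livers. Its level was -0.02, 0.55, -0.62 and -1.11 on furan arrays 1 to 4, against 2.13, 2.72, 0.93 and 2.57 on control arrays 1 to 4. Every furan liver lay below every control liver. The change was -2.39 ± 0.46 (95% interval -3.45 to -1.33, limma adjusted p = 0.00619). It was -2.16 within slide 1 and -2.61 within slide 2, with 2 arrays a group in each. The probe, at chr14:18690468-18690527 on the minus strand of rn4, the build of the array annotation, was printed in 10 spots, whose SD on an array was 0.042 to 0.290. The SD between livers was larger, at 0.718 among furan livers and 0.810 among control livers. Among 21 alternatives, limma's adjusted p for Cxcl1 was above 0.05 only when a slide was taken alone, at 0.0556 for slide 1 and 0.0524 for slide 2.

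Cxcl2, which encodes the related neutrophil chemoattractant and lies 13.2 kb from the Cxcl1 probe on the array's annotation, was not called. Its level was -0.99, -3.83, -5.74 and -6.32 on furan arrays 1 to 4, against -5.74, -4.40, -6.66 and -6.39 on control arrays 1 to 4. The groups overlapped, and furan 1 stood above all other arrays. The change of 1.58 ± 1.10 had a 95% interval of -0.94 to 4.10 (limma adjusted p = 0.302), and it was 0.50 without furan 1. The Cxcl2 change was 2.66 within slide 1 and 0.50 within slide 2. The processed signal of this probe was 16.3 to 747 intensity units on the furan arrays and 10.5 to 46.5 on the control arrays, and with normexp the change was 0.63.

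The difference between the 2 neighbours was then taken on each array, a comparison chosen after the values had been seen. Cxcl1 minus Cxcl2 was 0.97, 4.37, 5.11 and 5.22 on furan arrays 1 to 4, against 7.87, 7.12, 7.59 and 8.96 on control arrays 1 to 4. Every furan difference was smaller than every control difference, and the groups differed by -3.96 (two-sided exact permutation test over 70 splits, p = 0.0286, the smallest the design allows, and 0.0381 after Benjamini-Hochberg adjustment over 4 pairs). Cxcl1 alone had already set the groups apart, and the adjustment does not cover the choice of the pairs. Without furan 1 the difference was -2.98. For the pairs Cxcl1 with Cxcl2, Cxcl10 with Cxcl9 and the Cxcl12 probes, the sign held without any single array, but the adjusted p from the exact test was 0.0571 or 0.0762 without control 1, control 3, control 4, furan 1 or furan 2.

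The neutrophil chemokine receptor Cxcr2 was not tested, since its probe was well above background on 0 furan arrays and 2 control arrays. Cxcr1 was well above background on 0 furan arrays and 1 control array. Of 8 neutrophil markers tested, 3 were lower and none was higher, with a median change of -0.77. The share called over all genes tested, with the brightest probe of each, was 34.0%, of which 16.8% were lower. S100a9, a calcium-binding protein abundant in neutrophils, changed by -1.65 ± 0.52 (limma adjusted p = 0.0406) and Csf3r, the G-CSF receptor, by -1.06 ± 0.32 (limma adjusted p = 0.0343). Csf3r was dim, at a mean of -6.35 in furan livers, and its change ran from -1.30 to -0.66 over the alternatives. Ceacam1, an adhesion molecule that is not restricted to neutrophils, changed by -0.86 ± 0.23 (limma adjusted p = 0.0233). Each of these calls was lost without furan 2 and when other single arrays were left out. The mean of the markers was -4.43 to -3.45 on the furan arrays and -3.41 to -3.03 on the control arrays, and 6 further markers, among them the granule enzymes Mpo and Elane, were not well above background on all arrays of either group. In bulk liver, fewer cells of a type and less RNA per cell cannot be told apart, and the part of these cells in the Cxcl1 change was not tested.

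**Figure D2:**
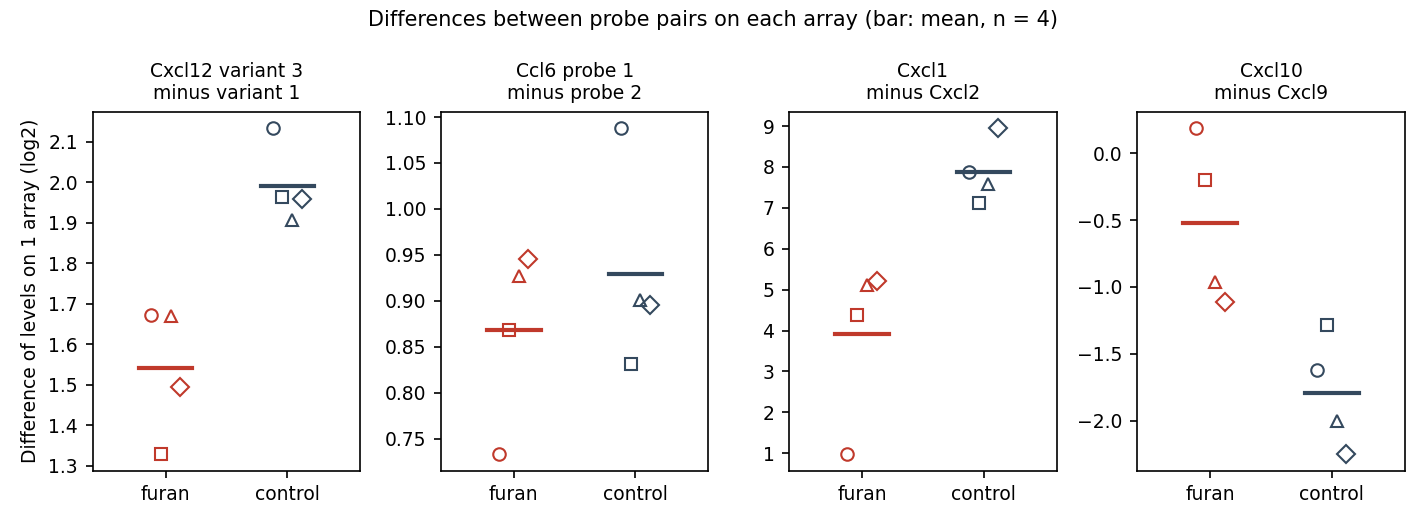
Difference between the levels of 2 probes on the same array, in log2, for the 4 pairs compared, with furan left of control; each point is 1 liver and bars are means of 4. Furan and control points are apart for Cxcl1 minus Cxcl2, Cxcl10 minus Cxcl9 and the Cxcl12 probes, and overlap for the Ccl6 probes.

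Genes of NF-kappa-B signalling and its inducing cytokines, the pathway that drives Cxcl1 and Cxcl2 in many cells, were read next. Of 22 tested, 7 were lower and 0 higher, with a median change of -0.35. Over all genes tested, with the brightest probe of each, 16.8% were called lower and 17.2% higher, and the median change was -0.03. Il1r1, the interleukin-1 receptor, changed by -1.89 ± 0.26 (limma adjusted p = 0.00180). Its probe was dim, at -6.54 to -5.50 on the furan arrays and -4.54 to -3.61 on the control arrays. Over the 21 alternatives its change ran from -2.06 to -1.05, and the call was kept. Nfkbiz, a nuclear regulator of NF-kappa-B target genes, changed by -1.54 ± 0.15 (limma adjusted p = 0.000620). Il1rn, the interleukin-1 receptor antagonist, changed by -0.89 ± 0.19 (limma adjusted p = 0.00991). The list holds inhibitors as well as activators, so its count has no single direction of signalling.

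The interferon-inducible Cxcl10 was 2.00-fold higher in furan livers. Its level was -1.40, -1.62, -2.45 and -2.61 on furan arrays 1 to 4, against -2.76, -2.76, -3.17 and -3.37 on control arrays 1 to 4. Every furan liver lay above every control liver. The change was 1.00 ± 0.30 (95% interval 0.32 to 1.67, limma adjusted p = 0.0324), 1.25 within slide 1 and 0.74 within slide 2. The call of Cxcl10 was lost without control 3 (adjusted p = 0.0774 by limma), control 4 (0.0813), furan 1 (0.0605) or furan 2 (0.0897), and also with no filter on dim probes (0.0661).

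Cxcl9, another Cxcr3 ligand, lies 20.8 kb from Cxcl10 and did not pass the test. Its level was -1.58, -1.42, -1.48 and -1.50 on furan arrays 1 to 4, against -1.14, -1.48, -1.17 and -1.12 on control arrays 1 to 4. The furan arrays were below 3 of the control arrays, and control 2 lay among them. The change of -0.27 ± 0.11 had a 95% interval of -0.53 to -0.01 (limma adjusted p = 0.0981). The call was made without control 2 (change -0.35, limma adjusted p = 0.0455) and with normexp (change -0.33, limma adjusted p = 0.0447).

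Cxcl10 minus Cxcl9 was 0.19, -0.20, -0.97 and -1.11 on furan arrays 1 to 4, against -1.62, -1.28, -2.00 and -2.25 on control arrays 1 to 4. The furan differences were all above the control differences, by 1.27 on average (two-sided exact permutation test, p = 0.0286, adjusted p = 0.0381 over 4 pairs). It was also a comparison chosen after the values had been seen. Cxcl10 alone had already set the groups apart, so this p adds little to the Cxcl10 result. Cxcl11, a further Cxcr3 ligand, changed by -0.11 ± 0.18 and was not called (limma adjusted p = 0.680). The receptor Cxcr3 changed by 0.47 ± 0.50 (limma adjusted p = 0.502), and its direction was reversed in 3 of the alternatives.

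Of 21 interferon response genes tested, 9 were lower and 0 higher, with a median change of -0.53, while Cxcl10 was higher. The shares over all genes tested were 16.8% lower and 17.2% higher. Oas1a, an antiviral oligoadenylate synthetase, changed by -1.57 ± 0.12 (limma adjusted p = 0.000238). The immune checkpoint ligand Cd274 changed by -1.19 ± 0.23 (limma adjusted p = 0.00616), and the antiviral enzyme Rsad2 by -1.11 ± 0.27 (limma adjusted p = 0.0158). Cd274 was dim, at a mean of -5.60 in furan livers, and its change ran from -1.41 to -0.77 over the alternatives. Of the T cell and NK cell markers, 18 were tested, with 1 higher, 2 lower and a median of -0.22, which was -0.53 without control 1. The mean of those markers was -3.69, -3.99, -3.95 and -4.06 on furan arrays 1 to 4, against -4.52, -3.42, -3.67 and -3.51 on control arrays 1 to 4. Control 1 lay below all furan arrays and the other 3 control arrays above them. The part of these cells in the Cxcl10 change was not tested.

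**Figure D3:**
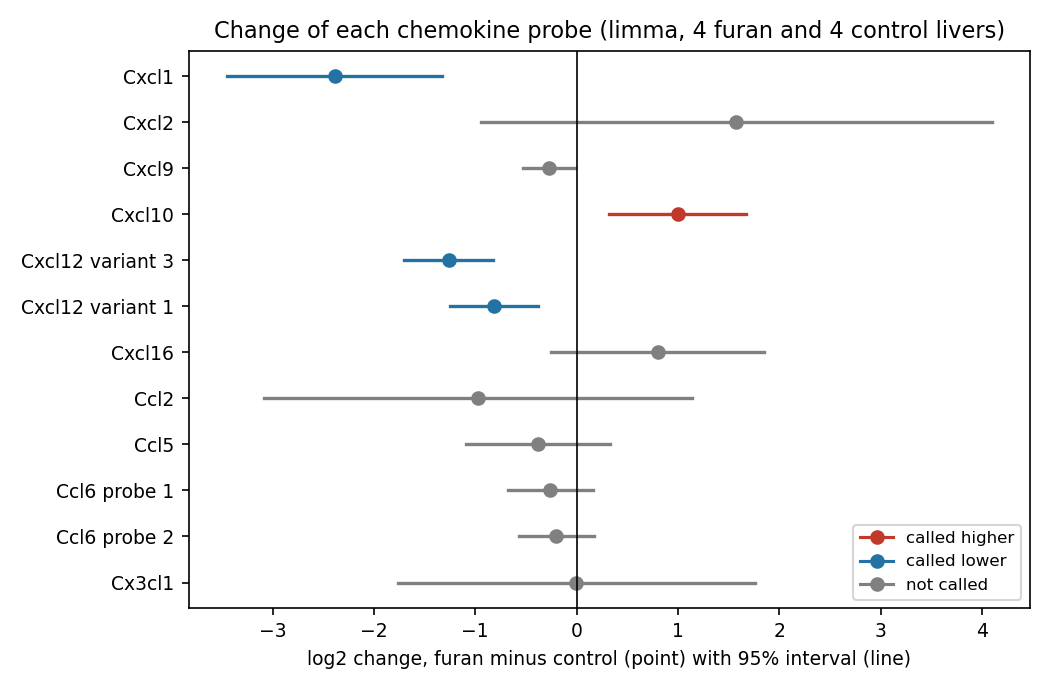
Change of each chemokine probe, furan minus control, in log2 with its 95% interval from limma over 4 furan and 4 control livers, beside a line at no change. The intervals of Cxcl1 and both Cxcl12 probes lie below 0 and that of Cxcl10 above 0. That of Cxcl9 also ends just below 0, but its adjusted p was 0.0981.

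Cxcl12, the ligand of Cxcr4 that retains leukocytes and progenitor cells in tissue, was lower on both of its probes. The array annotates them to transcript variants 3 and 1, at chr4:153516205-153516264 and chr4:153510285-153510344 on the plus strand of rn4, 5.86 kb apart. The first 30 of their 60 bases are given because the 2 probes are annotated to different transcript variants and changed by different amounts.
Cxcl12 variant 3 probe: atgtggtgaatactgtattttgtttcagtt
Cxcl12 variant 1 probe: gctgtaagcctcctactgtatgtgggaatt

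On the variant 3 probe the level was 3.05, 3.31, 3.74 and 3.76 on furan arrays 1 to 4, against 5.00, 4.75, 4.45 and 4.72 on control arrays 1 to 4. All furan livers were below all control livers, with a change of -1.26 ± 0.19 (95% interval -1.70 to -0.83, 2.40-fold lower, limma adjusted p = 0.00253). On the variant 1 probe the level was 1.38, 1.98, 2.07 and 2.27 on furan arrays 1 to 4, against 2.86, 2.79, 2.55 and 2.76 on control arrays 1 to 4. The groups were again apart, with a change of -0.81 ± 0.19 (95% interval -1.25 to -0.38, 1.76-fold lower, limma adjusted p = 0.0128). Within slides 1 and 2 the change was -1.69 and -0.84 on the variant 3 probe and -1.14 and -0.49 on the variant 1 probe. The call of the variant 3 probe was lost on slide 2 alone (limma adjusted p = 0.0508), and that of the variant 1 probe on slide 1 alone (0.0896) and on slide 2 alone (0.134).

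The variant 3 probe minus the variant 1 probe was 1.67, 1.33, 1.67 and 1.50 on furan arrays 1 to 4, against 2.13, 1.96, 1.91 and 1.96 on control arrays 1 to 4. The difference was smaller in every furan liver than in any control liver (change -0.45, two-sided exact permutation test, p = 0.0286, adjusted p = 0.0381 over 4 pairs). This comparison too was chosen after the values had been seen. Whether either probe reads only the variant it is annotated to was not checked. The 2 probes also differed in level, with control means of 4.73 and 2.74. The difference is therefore one between probes, and a shift between variants was not tested. The receptor Cxcr4 changed by -0.27 ± 0.30 (limma adjusted p = 0.513) and the scavenging receptor Ackr3 by -0.74 ± 0.61 (limma adjusted p = 0.380), so neither was called. On slide 2 alone Ackr3 was called lower (change -1.24, limma adjusted p = 0.0337), and without single arrays its change ran from -1.13 to -0.23. Of 6 genes of hypoxia and Cxcl12 regulation, 1 was lower: Vegfa, an endothelial growth factor, changed by -1.02 ± 0.15 (limma adjusted p = 0.00238). Heparan sulphate proteoglycans hold Cxcl12 at the cell surface. Among 8 atypical receptors and processing genes tested, the syndecans Sdc2 (-1.05 ± 0.13, limma adjusted p = 0.00141) and Sdc4 (-0.97 ± 0.15, limma adjusted p = 0.00294) were lower. Sdc1, a further syndecan of the list, was not called (-0.06 ± 0.11, limma adjusted p = 0.710). Its mean level was 4.41 in furan and 4.47 in control livers, above those of Sdc2 and Sdc4.

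Markers of sinusoidal endothelium and of stellate cells, both among the liver cells that make Cxcl12, were set beside it. Of 16 sinusoidal endothelium markers, 1 was lower: Ptprb, an endothelial phosphatase, averaged -1.39 ± 0.34 in furan livers and -0.39 ± 0.09 in control livers (SD, n = 4 each, limma adjusted p = 0.00374). The list's median change was -0.07, and -0.66 without control 1. Its mean was -1.59, -1.84, -1.51 and -1.73 on furan arrays 1 to 4, against -2.81, -1.05, -1.21 and -1.01 on control arrays 1 to 4. Control 1 lay below all furan arrays and the other 3 control arrays above them. Of 14 stellate cell and fibroblast markers, 1 was higher, Rgs5, a pericyte G protein regulator, by 1.21 ± 0.18 (limma adjusted p = 0.00239), with a mean of -2.04 to -0.74 on the furan arrays and -2.22 to -1.08 on the control arrays. The stellate means overlapped between the groups, and that list's median change of 0.08 ran from -0.02 to 0.39 without single arrays. The part of either cell type in the Cxcl12 change was not tested.

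The transmembrane chemokine Cx3cl1, also called fractalkine, varied widely between livers. Its level was 0.01, -0.85, -2.06 and -2.55 on furan arrays 1 to 4, against -2.27, 0.70, -1.69 and -2.16 on control arrays 1 to 4. Furan 1 and control 2 were the highest of their groups, and the groups overlapped. The change was -0.00 ± 0.77 (95% interval -1.77 to 1.76, limma adjusted p = 0.997), and without control 2 it was 0.68. It was 0.37 within slide 1 and -0.38 within slide 2. Its receptor Cx3cr1 changed by -0.51 ± 0.25 (limma adjusted p = 0.149).

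Cxcl16, the transmembrane ligand of Cxcr6, was at 0.97, 0.46, -0.64 and -0.81 on furan arrays 1 to 4, against -1.49, 0.05, -0.89 and -0.90 on control arrays 1 to 4. Furan 1 and furan 2 were above all the control arrays, and furan 3 and furan 4 were below control 2. The change of 0.80 ± 0.46 was not called (95% interval -0.25 to 1.85, limma adjusted p = 0.210). It was 1.43 within slide 1 and 0.17 within slide 2, and ran from 0.47 to 1.09 without single arrays. Cxcr6, well above background on 4 furan arrays and 3 control arrays, changed by 0.38 ± 0.52 (limma adjusted p = 0.606). With normexp its direction turned and it was called lower (change -0.38, limma adjusted p = 0.00683).

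The monocyte chemoattractant Ccl2 was at -2.20, -3.81, -4.68 and -5.17 on furan arrays 1 to 4, against -3.96, -0.55, -4.49 and -2.95 on control arrays 1 to 4. Control 2 was the highest of the 8 arrays, and the groups overlapped. The change of -0.98 ± 0.92 was not called (95% interval -3.09 to 1.14, limma adjusted p = 0.446), and it was -0.16 without control 2. Its 10 spots on an array had an SD of 0.059 to 0.238, below the SD between livers of 1.31 in the furan group and 1.74 in the control group. Its receptor Ccr2 was well above background on 2 furan arrays and 2 control arrays and was not tested.

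These livers also differed in markers of bile duct cells, the cholangiocytes, which are a source of Cx3cl1 and Cxcl16 in liver. The mean of 13 cholangiocyte markers was -0.66, -1.63, -2.88 and -2.94 on furan arrays 1 to 4, against -3.71, -1.38, -3.67 and -3.40 on control arrays 1 to 4. Furan 1, control 2 and furan 2 had the 3 highest means, and the same 3 arrays had the 3 highest levels of Cx3cl1, Cxcl16 and Cxcl2. All 3 were on slide 1, as was control 1, which had the lowest mean. The pattern was not particular to these genes. Ccl21 was also highest on control 2 (0.47), furan 1 (-0.21) and furan 2 (-1.75). The mean of the stellate cell list was highest on furan 1 (-0.74) and control 2 (-1.08). For Ccl2 the 3 highest arrays were control 2, furan 1 and control 4. Among the 13 markers, 3 were higher after furan and 1 was lower, beside 17.2% higher and 16.8% lower over all genes tested. Epcam, an epithelial adhesion molecule, changed by 1.79 ± 0.37 (limma adjusted p = 0.00748), the tight junction protein Cldn7 by 1.54 ± 0.46 (limma adjusted p = 0.0323), and Slc4a2, an anion exchanger that is not restricted to bile ducts, by -0.53 ± 0.11 (limma adjusted p = 0.00789). Sox9, a biliary transcription factor, changed by 0.48 ± 0.13 (limma adjusted p = 0.0219), and with normexp by 0.17 with no call. The call of Cldn7 was lost without furan 1, furan 2, control 1, control 3 or control 4. The median change of the list was 0.72. It was 1.75 without control 2, 1.25 without furan 3, 1.22 without furan 4, 0.43 without control 1, 0.39 without furan 1 and 0.40 with normexp. The part of bile duct cells, or of the slide, in the levels of Cx3cl1, Cxcl16, Cxcl2 and Ccl2 was not tested.

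**Figure D4:**
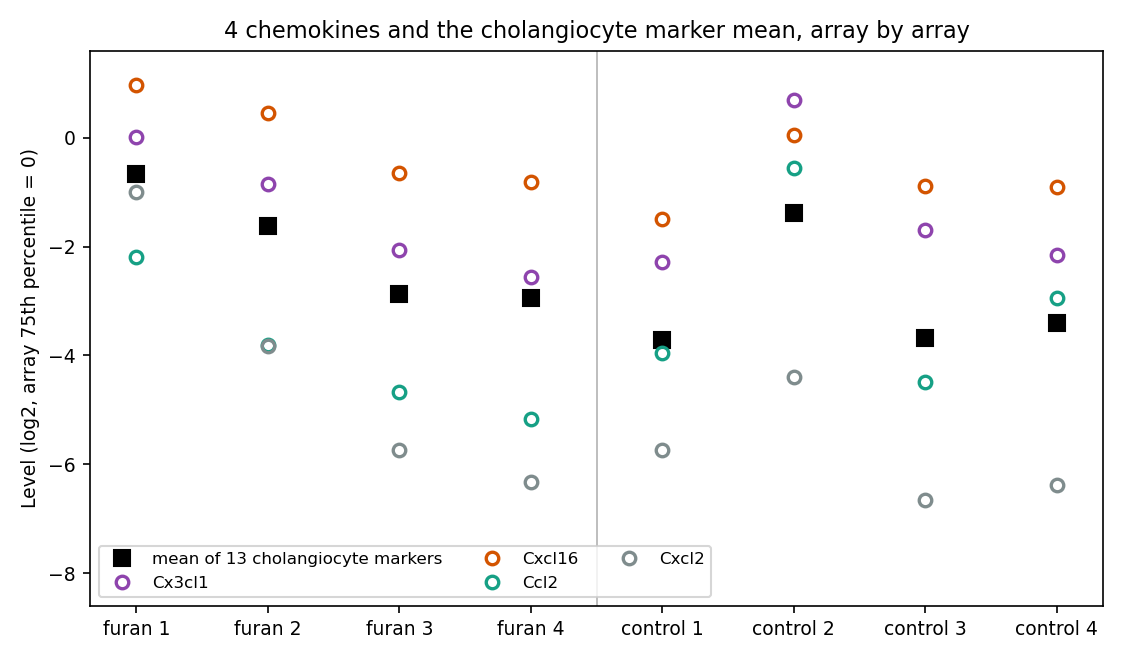
Levels of Cx3cl1, Cxcl16, Ccl2 and Cxcl2 on each array, in log2 with the array's 75th percentile at 0, as open circles, and the mean of 13 cholangiocyte markers as black squares, with furan arrays left of control arrays. Furan 1, control 2 and furan 2 have the 3 highest marker means and the 3 highest levels of Cx3cl1, Cxcl16 and Cxcl2.

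Ccl5, a chemokine made by T cells, was at -0.00, 0.48, 0.47 and 0.59 on furan arrays 1 to 4, against -0.21, 1.12, 0.91 and 1.23 on control arrays 1 to 4. Control 1 lay below all 4 furan arrays and the other 3 control arrays above them. The change was -0.38 ± 0.31 (95% interval -1.09 to 0.33, limma adjusted p = 0.379), and without control 1 it was -0.70 with a limma adjusted p of 0.0222.

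Ccl6 is a rodent chemokine of macrophages. Its probe at chr10:71660234-71660293 was at 1.82, 2.04, 1.98 and 2.18 on furan arrays 1 to 4, against 2.54, 2.14, 1.81 and 2.56 on control arrays 1 to 4. Its other probe, at chr10:71660623-71660682, was at 1.09, 1.17, 1.05 and 1.23 on furan arrays 1 to 4, against 1.45, 1.31, 0.91 and 1.66 on control arrays 1 to 4. On both probes control 3 was the lowest of the 8 arrays, and the groups overlapped. The changes were -0.26 ± 0.18 and -0.20 ± 0.16 (limma adjusted p = 0.308 and 0.376), and the difference between the probes did not separate the groups (change -0.06, two-sided exact permutation test, p = 0.486).

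Kupffer cells and other macrophages are a source of Ccl2 and Ccl6. Of 17 macrophage markers tested, 1 was lower and 0 were higher, with a median change of -0.15, which ran from -0.31 to -0.0004 without single arrays. Itgam, an integrin of monocytes and neutrophils, changed by -0.56 ± 0.17 (limma adjusted p = 0.0340), a call lost when any 1 of 6 arrays was left out. The marker mean was -0.22 to 0.20 on the furan arrays and -0.21 to 0.51 on the control arrays. Of 14 hepatocyte markers, 10 were lower and 1 was higher, with a median of -0.73, beside 16.8% lower and 17.2% higher over all genes tested. F9, coagulation factor IX, changed by -1.57 ± 0.27 (limma adjusted p = 0.00377), the asialoglycoprotein receptor subunit Asgr2 by -1.20 ± 0.16 (limma adjusted p = 0.00177), the gluconeogenic enzyme Pck1 by -1.16 ± 0.20 (limma adjusted p = 0.00419) and the apolipoprotein Apoa1 by 0.72 ± 0.12 (limma adjusted p = 0.00352). The hepatocyte mean was 4.10 to 4.62 on the furan arrays and 4.99 to 5.19 on the control arrays, and these ranges were apart. Its part in the falls of Cxcl1 and Cxcl12 was not tested.

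The other chemokines of the array were read as a group. Of 26 symbols listed, of which Cxcl5 and Cxcl6 name 1 gene in the current annotation, 18 were tested. Of these, 2 were higher and 5 lower, with a median change of -0.36. The share called was near the 34.0% called over all genes tested, with the brightest probe of each. Ccl28, a chemokine of mucosal epithelium, changed by 2.66 ± 0.79 (limma adjusted p = 0.0321), but by 0.14 with normexp and with no call. Its probe was well above background on 4 furan arrays and 1 control array, so it entered the test through the furan arrays and its control level was mostly unmeasured. Cxcl14, a chemokine of epithelium, changed by 0.87 ± 0.26 (limma adjusted p = 0.0336). Ccl19, which guides dendritic cells and T cells through Ccr7, changed by -1.06 ± 0.26 (limma adjusted p = 0.0159), the macrophage inflammatory protein Ccl4 by -1.06 ± 0.15 (limma adjusted p = 0.00179) and the platelet chemokine Pf4 by -0.96 ± 0.31 (limma adjusted p = 0.0463). The calls of Ccl28 and Cxcl14 were lost without furan 1, furan 2, control 1, control 3 or control 4, and that of Cxcl14 also without furan 3. That of Pf4 was lost without control 2, control 3, control 4, furan 2, furan 3 or furan 4 and with slide as a block (limma adjusted p = 0.0605). The remaining 2 lower genes were Ccl12 and Ccl22. Cxcl3 and Cxcl6, further neutrophil chemoattractants, were not well above background on all arrays of either group.

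Of 18 chemokine receptors, 7 were tested, and 1 was lower and 0 were higher. This was Ccr9, the receptor of Ccl25 on gut-homing T cells, with a change of -0.33 ± 0.11 (limma adjusted p = 0.0398). Its call was lost when any 1 array other than furan 1 was left out, with a variance trend and with slide as a block (limma adjusted p = 0.0549). Ccr1 was well above background on 3 furan arrays and 3 control arrays and was not tested. Receptor signals were low in most cases, so a change in receptor level was often not measurable on these arrays.

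**Figure D5:**
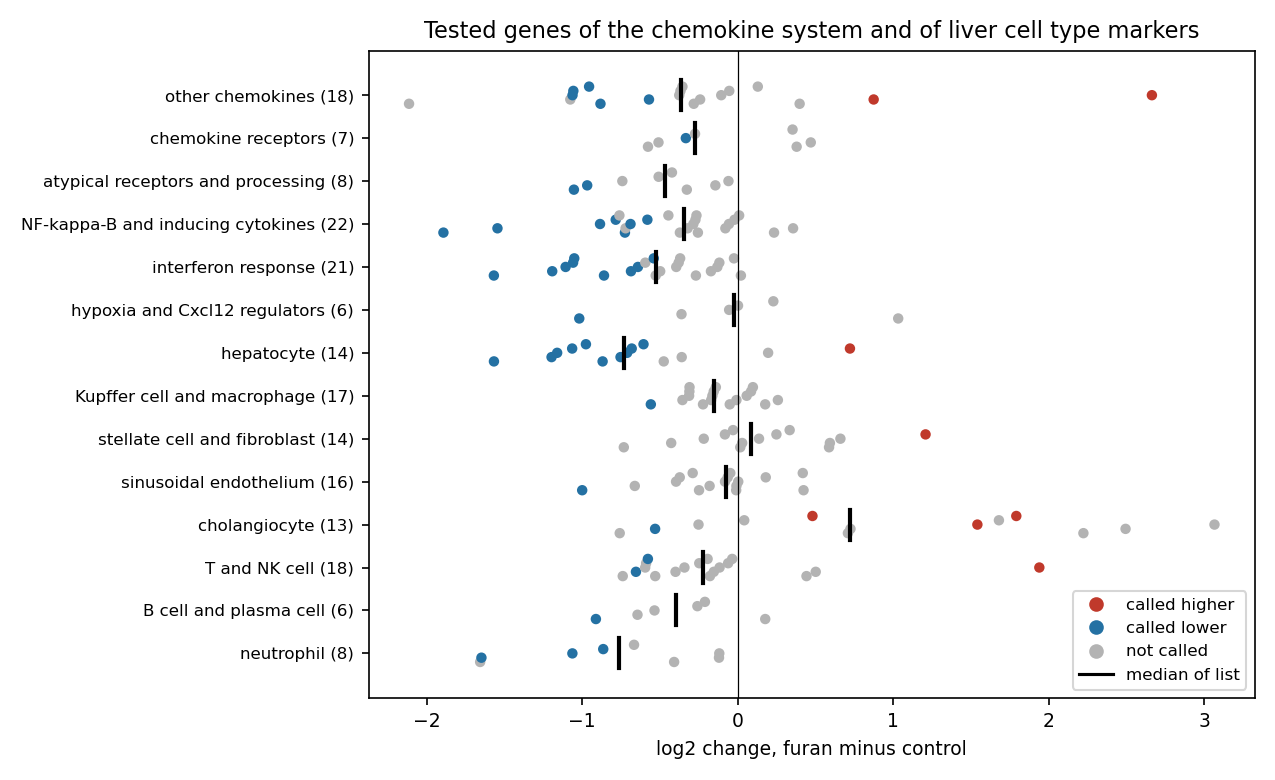
Change of every tested gene, furan minus control in log2, in the pathway and cell marker lists, one row for each list, with genes called higher in red, called lower in blue and not called in grey, and the list median as a bar. Interferon response, NF-kappa-B and hepatocyte genes lie mostly below 0 and cholangiocyte genes mostly above 0.

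The genes whose levels followed a chemokine most closely over the 8 arrays were ranked by the root mean square difference of centred levels, among 12276 named genes well above background on all arrays. For Cxcl1, whose own root mean square deviation was 1.37, these were Oat (ornithine aminotransferase, 0.451), Loxl4 (a lysyl oxidase, 0.480) and Junb (an AP-1 subunit, 0.559). For Cxcl10, with its own deviation of 0.647, they were Myadm (0.129), Ikbip (0.152) and Cdk6 (a cell cycle kinase, 0.153). For the Cxcl12 variant 3 probe, at 0.680, they were Mup5 (0.0949), Cpamd8 (0.103) and Sugct (0.111), and for the variant 1 probe, at 0.477, Zfp7 (0.0671), C2cd2 (0.0871) and Eml5 (0.0991). A small difference includes the shared change between furan and control livers.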

How the data were processed

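Liver RNA of 4 furan-treated and 4 control rats was hybridised to 8 Agilent 1-colour arrays. Per the file headers, the authors extracted spots with Agilent Feature Extraction 10.7.3.1, whose deposited processed signal is a background-subtracted intensity. The deposited series table holds intensity scaled to a 75th percentile of 1000, and it matched the scanner signal within 2.22e-07 on the log2 scale. The build and strand of the probes are those of the array annotation (rn4).

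From the deposited intensity, log2 values minus the log2 75th percentile of each array's non-control spots were computed, flagged non-uniform or outlier spots were left out, and spots of a probe were averaged. A probe entered the test if at least 1 group had it well above background throughout. limma 3.58.1 (lmFit, eBayes; R 4.3.3) compared furan with control over 20268 probes, with a call at an adjusted p below 0.05, and was tested on simulated data. Gene names came from RefSeq tables for 22025 of 30367 probes, and 8342 probes had none. For lists, the brightest probe of each gene was used. The sources do not say more than that these were separate rats.

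Members and the 14 lists (6 pathway, 8 cell marker) were chosen with earlier results of these data known. Named by rule were the members, 9 receptors of members (1 of them is not reported here), for each list up to 3 called genes with the largest rise and up to 3 with the largest fall, and for each called member probe the 3 genes most like it. Other genes were chosen after their values were seen. Replicate numbers shared by the groups were checked as pairs. Deviations of same-numbered arrays correlated between -0.30 and 0.28, and 2 of 4 furan arrays correlated best with the control of their own number. The labels do not say what the numbers mean, and this check cannot settle it. The numbers were not used to pair livers in the main setting. Of 21 alternatives, 1 (without control 2 and furan 1) was added after the data were seen, as were the differences between probe pairs.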

Additional observations from a re-analysis of the deposited data

Results flagged for a closer look

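Of 102 groups of 4 arrays checked, 3 had an array apart from the other 3 by more than Dixon's 95% critical value, and chance flags about 1 group in 20. Cxcl9 was at -1.48 on control 2, against -1.17 to -1.12 on the other control arrays. Oas1a was at -0.64 on control 4, against -1.07 to -1.02 on the others. Cxcr6 was at -8.11 on control 1, against -5.92 to -5.61 on the others.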

How the results depend on the processing

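The main setting called 3 chemokine probes lower and 1 higher, and 44 listed genes lower and 8 higher. With normexp 81 listed genes were lower, and with no filter on dim probes 0 chemokine probes and 4 listed genes were higher. Slide 1 alone gave 1 chemokine probe lower and 0 higher, with 4 listed genes lower and 0 higher; slide 2 alone gave 0 and 0, with 20 listed genes lower. Both have 2 arrays a group. With control 2 and furan 1 left out, chosen after seeing the data, 0 chemokine probes were higher. Leaving out 1 array at a time gave 3 to 4 chemokine probes lower and 0 to 1 higher, and 32 to 58 listed genes lower and 4 to 11 higher. The replicate block left 3 and 1 chemokine probes, and 39 and 8 listed genes, although the labels do not say whether the numbers pair livers. With that block the calls of Pf4, Ccr9, Sox9 and Cd8b were lost (limma adjusted p = 0.108, 0.112, 0.0736 and 0.0657). The change of Cx3cl1 turned positive with quantile normalization (0.0011), on slide 1 (0.37), without control 2 (0.68), furan 3 (0.23) or furan 4 (0.39), and without control 2 and furan 1 (0.22), and ran from -0.46 to 0.68 when single arrays were left out. Cxcr3 was -0.21 with normexp and -0.22 on slide 2, and -0.066 to 0.76 without single arrays. Cxcr6 was -0.38 in both settings, and -0.21 to 0.63 without single arrays. Cxcr4 was 0.28 on slide 1 and Cx3cr1 0.037 on slide 2. The cause of these moves was not tested. Dim probes, such as Cxcl2, Ccl28, Il1r1, Cd274 and Csf3r, lie near background, which limits their changes.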

Other observations

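Few lymphocyte markers were called, and in both directions: of 18 T cell and NK cell markers tested, 1 was higher and 2 were lower. Over all genes tested, with the brightest probe of each, 34.0% were called. Zap70, a T cell receptor kinase, was higher in furan livers by 1.94 ± 0.32 (limma adjusted p = 0.00331), while the transcription factor Tbx21 changed by -0.65 ± 0.16 (limma adjusted p = 0.0141) and the co-receptor chain Cd8b by -0.58 ± 0.16 (limma adjusted p = 0.0233). Of 6 B cell and plasma cell markers tested, 1 was lower: Pax5, a B cell transcription factor, changed by -0.91 ± 0.20 (limma adjusted p = 0.00980). The median was -0.40, or -0.65 without control 1. Pax5 averaged -1.40 in furan and -0.49 in control livers. The mean of the B cell list was lower, at -5.53 to -5.21 on furan and -5.77 to -4.46 on control arrays. The call of Cd8b was lost without control 3, furan 2 or furan 3 and with a variance trend.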
